A study of Arabidopsis thaliana with 4 samples.

Results

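The 49 genes described here act in the iron economy of Arabidopsis thaliana, and all 49 were found by locus among the 33664 features of each deposited file. They were taken by locus from a list of iron regulators, uptake, transport and storage genes. The rule itself uses no measured value, but the list was drawn up with earlier results of these data known. RNA came from whole Col-0 seedlings of 9 days grown on MS plates in 16 h light and 8 h dark at 23 ± 2 °C. There were 2 libraries labelled trm4b-4, a mutant in the RNA 5-methylcytosine methyltransferase gene TRM4B, and 2 wild type libraries. The genotype field of the trm4b-4 libraries has the spelling tm4b-4, and no label describes the mutation. Nothing states that replicates were grown separately, so p-values measure the spread between these 4 libraries only, and that spread may be technical.

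Arabidopsis takes up iron by acidifying the soil, reducing ferric iron at the root surface and importing ferrous iron through IRT1. The transcription factor FIT drives these steps together with partners of the Ib bHLH group, which are themselves switched on by IVc bHLH factors when iron is short. BTS and its relatives, E3 ubiquitin ligases with iron-binding domains, mark the IVc factors or FIT for breakdown, and IMA peptides counteract them. Inside the plant iron moves with nicotianamine and citrate, passes the vacuole through NRAMP and VIT1 proteins and is stored in plastids by ferritin.

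Libraries held between 21931590 and 26390263 counted fragments, and 18785 to 18888 features per library reached 1 FPKM, a level scaled to gene length and to the fragments of the library. Chi-square values of the fragment numbers averaged 1.57 per gene within trm4b-4, 1.71 within wild type and 26.8 to 28.4 across genotypes. TRM4B itself was at 86.3 and 87.1 FPKM in libraries labelled trm4b-4, against 29.7 and 28.9 FPKM in wild type. The targeted gene was thus higher in the libraries labelled as its mutant, and each direction is stated by label. No label describes the mutation, so whether it should lower this RNA is not known. Whether the genotype labels were exchanged cannot be told from these values, and every direction would turn if they were. Whether the transcript is whole cannot be read from values per gene.

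Most iron genes were higher in the libraries labelled trm4b-4. Of the 49 members, 46 reached 1 FPKM in at least 2 libraries and were tested on log2(FPKM + 1) with limma over 19027 genes. At a Benjamini-Hochberg adjusted p under 0.05, 27 members were higher and 5 lower, while 34.3% of all tested genes were called, 19.2% higher and 15.1% lower. The median log2 change of the 46 was 0.27, beside 0.03 over all tested genes. Groups did not overlap for 40 of the 46, where 68.4% of all tested genes had groups that did not overlap. A change of at least 2-fold on this scale was reached by 7 members, all of them higher, beside 0.599% of all tested genes called higher and 1.58% called lower by that much. These were bHLH38, bHLH39, bHLH100, the IMA genes AT1G47400 and AT1G47395, FRO2 and CYP82C4. Of the 32 called members, 16 changed by less than 1.5-fold. By step, 5 of 6 tested regulators were higher, 9 of 12 sensing genes, 5 of 12 uptake genes, 5 of 8 transport genes and 3 of 8 storage genes. The median log2 change was 1.05 for the regulators, 0.26 for sensing, 0.20 for uptake, 0.20 for transport and 0.14 for storage. Another annotated gene overlaps 18 of the 49 members, whose levels are uncertain where the counting did not use strand. Among them are bHLH38 (386 bases), MYB10 (340), AT1G74770 (471) and ILR3 (up to 630). In FER2 (8 bases) and FER4 (118) the overlap is on the same strand, so counting by strand would not resolve it. In whole seedlings, more or fewer cells of a type and more or less RNA per cell cannot be told apart.

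**Figure D1:**
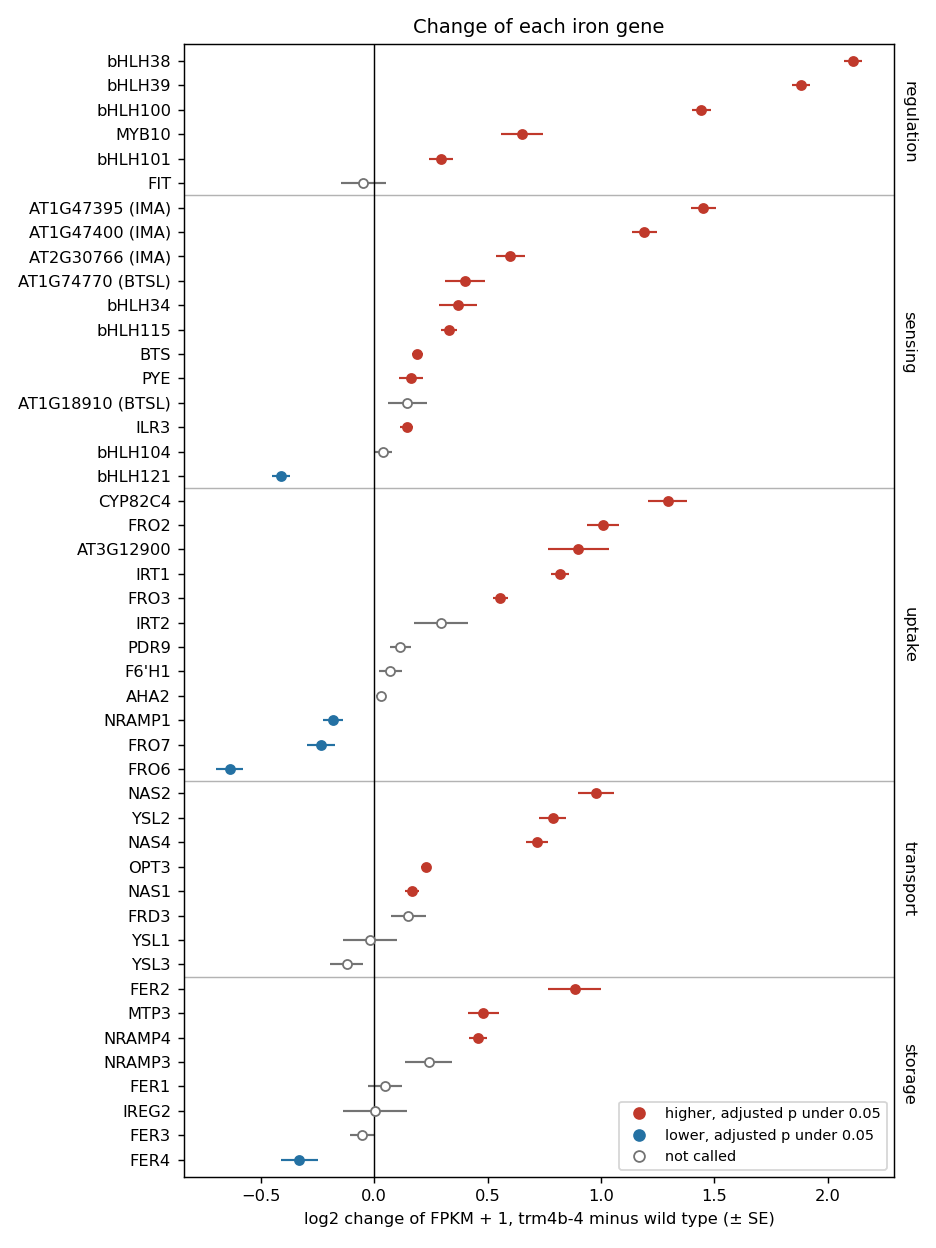
Log2 change of FPKM + 1, libraries labelled trm4b-4 minus wild type, for the 46 tested iron genes grouped by step, with the standard error of the limma fit as bars. The 27 genes called higher include 3 Ib bHLH genes above 1.4, and the 5 called lower are bHLH121, NRAMP1, FRO7, FRO6 and FER4.

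On the log2(FPKM + 1) scale the 4 largest changes belonged to 2 regulator families, the Ib bHLH and IMA genes. The order depends on the scale. By ratio of mean FPKM, the low gene AT3G12900 ranked above bHLH38, and FER2 and CYP82C4 above bHLH100 and AT1G47395. Upstream or coding sequences of the 2 families are shown because their members differ in response and some are near copies. Of the Ib bHLH genes, bHLH38 (AT3G56970, chromosome 3, 21084035 to 21085245) and bHLH39 (AT3G56980, 21086390 to 21087710) are neighbours on the minus strand. The others are bHLH100 (AT2G41240, chromosome 2, 17198037 to 17199454) and bHLH101 (AT5G04150, chromosome 5, 1138410 to 1139633). Positions and sequences are those of RefSeq's TAIR10.1. The 250 bases before each annotated gene start are given 5′ to 3′ on the gene's own strand, the windows being chr3:21085246-21085495, chr3:21087711-21087960, chr2:17199455-17199704 and chr5:1139634-1139883. Capitals mark every E-box, CANNTG with N any base, the general bHLH binding word. CACGTG, the G-box, is an E-box too.
bHLH38: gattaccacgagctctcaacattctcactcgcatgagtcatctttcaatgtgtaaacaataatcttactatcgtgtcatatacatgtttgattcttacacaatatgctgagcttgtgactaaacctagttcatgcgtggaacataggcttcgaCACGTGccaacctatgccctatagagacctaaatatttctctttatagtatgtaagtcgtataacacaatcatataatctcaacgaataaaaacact
bHLH39: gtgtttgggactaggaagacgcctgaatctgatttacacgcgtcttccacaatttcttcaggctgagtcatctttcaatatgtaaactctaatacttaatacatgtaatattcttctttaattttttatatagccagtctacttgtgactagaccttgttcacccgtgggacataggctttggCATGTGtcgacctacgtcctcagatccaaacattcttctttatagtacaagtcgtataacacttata
bHLH100: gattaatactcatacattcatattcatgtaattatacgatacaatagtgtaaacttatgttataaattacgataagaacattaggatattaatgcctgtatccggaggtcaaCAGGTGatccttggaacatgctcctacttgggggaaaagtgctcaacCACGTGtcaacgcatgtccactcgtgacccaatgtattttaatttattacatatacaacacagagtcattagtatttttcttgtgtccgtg
bHLH101: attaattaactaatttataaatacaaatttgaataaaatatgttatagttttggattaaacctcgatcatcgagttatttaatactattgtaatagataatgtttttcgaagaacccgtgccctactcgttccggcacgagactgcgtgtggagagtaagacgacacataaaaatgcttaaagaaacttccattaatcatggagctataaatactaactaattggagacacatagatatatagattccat

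A G-box lay 97 bases before the start of bHLH38 and 91 bases before that of bHLH100. The bHLH39 window held 1 E-box, CATGTG, and no G-box, and the bHLH101 window held no E-box. These matches describe the windows and identify no site in use.

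The IMA genes AT1G47400 and AT1G47395 lie side by side on chromosome 1 (17385707 to 17386485 and 17382998 to 17383830), both on the plus strand and with 1 exon. The third, AT2G30766 (chromosome 2, 13107583 to 13110480), stands apart. The reference gives these 3 loci no symbol, and the family name is that of the gene list. Their coding sequences, at chr1:17385818-17385970, chr1:17383117-17383269 and chr2:13108068-13108211, have 153, 153 and 144 bases. Capitals mark the longest run that AT1G47395 shares with AT1G47400, and in AT2G30766 the longest that it shares with AT1G47395.
AT1G47400: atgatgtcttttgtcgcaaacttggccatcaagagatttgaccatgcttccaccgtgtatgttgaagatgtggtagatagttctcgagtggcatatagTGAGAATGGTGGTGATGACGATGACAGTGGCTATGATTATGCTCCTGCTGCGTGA
AT1G47395: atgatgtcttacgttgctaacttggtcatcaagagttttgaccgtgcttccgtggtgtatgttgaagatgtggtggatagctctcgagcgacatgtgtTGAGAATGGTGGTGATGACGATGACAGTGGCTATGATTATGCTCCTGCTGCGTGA
AT2G30766: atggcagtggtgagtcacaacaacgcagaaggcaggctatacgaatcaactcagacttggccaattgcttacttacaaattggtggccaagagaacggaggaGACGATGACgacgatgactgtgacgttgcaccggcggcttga

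The neighbours' coding sequences were identical at 88.9% of aligned bases, and the last 55 bases, stop codon included, were the same in both. AT2G30766 shared at most 9 bases in a row with AT1G47395. How fragments that match several genes were counted is not given in the sources used here. The split of fragments between the 2 neighbours, and so how far each rose by itself, is uncertain. Their joint rise is not touched if shared fragments were divided between them, but its size could be if such fragments were dropped or counted for both.

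Of the Ib bHLH genes, all 4 were higher in the libraries labelled trm4b-4, but by unequal amounts. bHLH38 was at 74.3 and 71.8 FPKM in libraries labelled trm4b-4, against 15.9 and 16.4 FPKM in wild type. The means were 73.1 ± 1.82 FPKM and 16.1 ± 0.321 FPKM (SD, n = 2 each). The ratio was 4.53 (limma log2 change 2.11, SE 0.040, adjusted p = 1.01e-08). Its neighbour bHLH39 was at 103.6 and 100.2 FPKM, against 26.1 and 27.8 FPKM in wild type, a ratio of 3.78 (adjusted p = 2.11e-08). bHLH100 was at 73.2 and 68.4 FPKM, against 25.3 and 25.6 FPKM in wild type, a ratio of 2.79 (adjusted p = 1.24e-07). In these 3 genes the lower library labelled trm4b-4 stood far above both wild type libraries. bHLH101 was at 41.9 and 47.0 FPKM, against 36.0 and 36.1 FPKM in wild type, a ratio of only 1.23 (log2 change 0.29, adjusted p = 0.00375). In wild type bHLH101 had the highest level of the group and bHLH38 the lowest, whereas in the libraries labelled trm4b-4 bHLH39 was highest and bHLH101 lowest. The coding sequences of bHLH38 and bHLH39 were identical at 84.8% of aligned bases with a longest shared run of 34 bases.

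FIT, the partner of the Ib factors, did not pass the test. It was at 5.54 and 4.53 FPKM in libraries labelled trm4b-4, against 5.25 and 5.18 FPKM in wild type, with the wild type values inside the range of the others (log2 change -0.05, SE 0.101, adjusted p = 0.753). MYB10, needed with MYB72 for growth on low iron, was higher at 4.66 and 4.43 FPKM, against 2.55 and 2.50 FPKM in wild type. Its ratio was 1.80 (log2 change 0.65, adjusted p = 0.00108). MYB72 was under the filter, with 1 fragment in a single library labelled trm4b-4 and 0 in the other 3 libraries.

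All 3 IMA genes, which encode small peptides that promote iron uptake, were higher. AT1G47395 was at 285 and 292 FPKM in libraries labelled trm4b-4, against 98.0 and 112 FPKM in wild type, a ratio of 2.74 (log2 change 1.45, SE 0.055, adjusted p = 6.2e-07). AT1G47400 was at 103 and 109 FPKM, against 43.1 and 48.4 FPKM in wild type, a ratio of 2.31 (adjusted p = 1.85e-06). AT2G30766 was at 24.0 and 26.9 FPKM, against 16.0 and 16.8 FPKM in wild type, a ratio of 1.55 (adjusted p = 0.000201). Groups were apart in all 3 genes, as they were for 68.4% of all tested genes. AT2G30766 overlaps annotated genes on the opposite strand, and the strand setting of the counting is not given, so its level is uncertain.

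The other sensing genes changed in both directions. Of the 4 IVc bHLH genes, bHLH115 (log2 change 0.33), bHLH34 (0.37) and ILR3 (0.14) were higher, and bHLH104 was at 0.04 (adjusted p = 0.511). bHLH115 was at 99.1 and 96.8 FPKM in libraries labelled trm4b-4, against 75.4 and 80.2 FPKM in wild type, a ratio of 1.26. bHLH121, a partner of the IVc factors, went the other way, at 26.0 and 26.6 FPKM in libraries labelled trm4b-4, against 35.3 FPKM in both wild type libraries (log2 change -0.41, SE 0.040, adjusted p = 0.000129). It was the single member of the sensing layer that was lower.

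BTS, the E3 ligase gene that limits the response, was at 124 and 125 FPKM in libraries labelled trm4b-4, against 109 and 108 FPKM in wild type, a ratio of 1.14 (log2 change 0.19, adjusted p = 0.000703). Its relative AT1G74770, of the BTSL type, was at 9.64 and 8.83 FPKM, against 6.25 and 7.26 FPKM in wild type (0.40, adjusted p = 0.00918). The other BTSL gene, AT1G18910, was at 0.15 (adjusted p = 0.236). PYE, a repressor of iron transport genes, was at 21.6 and 20.4 FPKM, against 19.1 and 18.2 FPKM in wild type (0.16, adjusted p = 0.0469). PYE did not pass in 8 of 12 alternative settings, among them the fits without trm4b-4 replicate 1 (adjusted p = 0.200), wild type replicate 1 (0.0789) or wild type replicate 2 (0.205). ILR3 did not pass when the mean-variance trend was left out (adjusted p = 0.0782), nor AT1G74770 without wild type replicate 1 (0.0537).

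**Figure D2:**
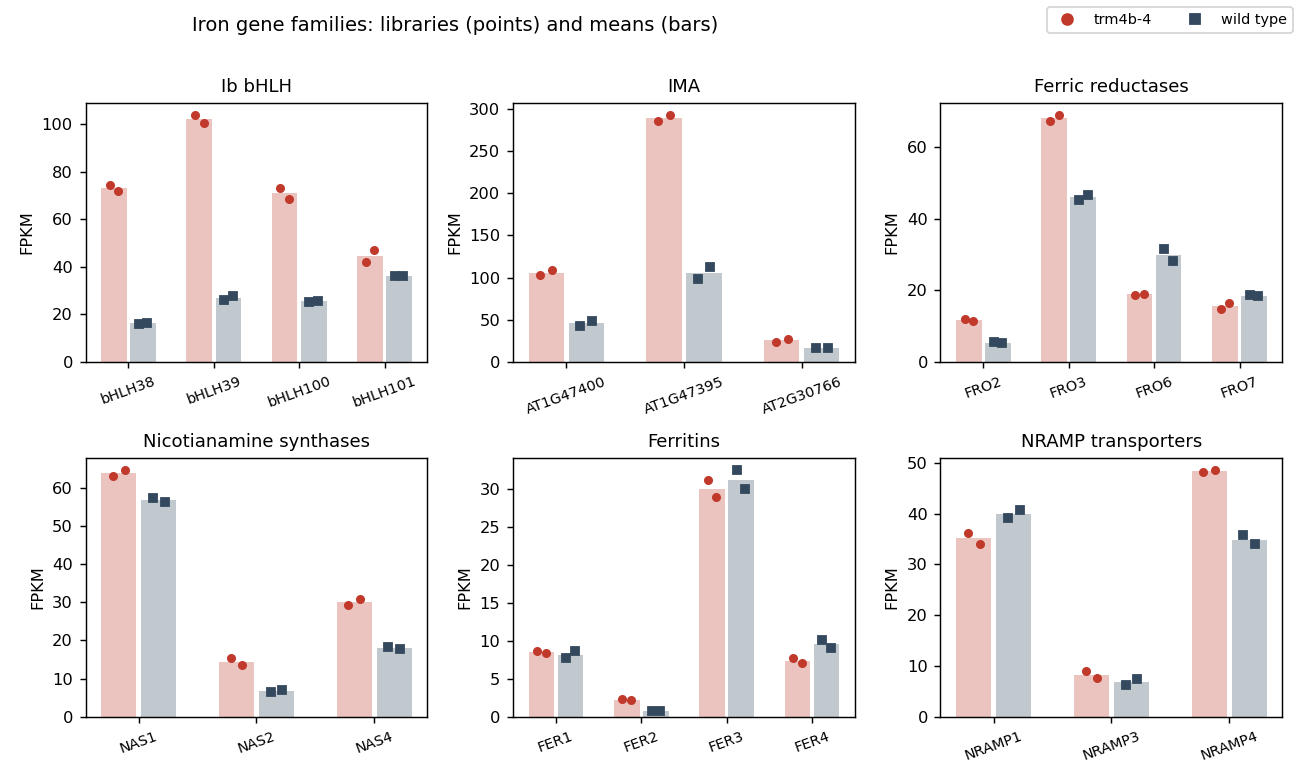
FPKM of 6 iron gene families on linear axes from 0, with each library as a point and the mean of a genotype as a bar, libraries labelled trm4b-4 left of wild type. bHLH38, bHLH39 and bHLH100 and the 2 neighbouring IMA genes stand well above wild type, while FRO6, FRO7, FER4 and NRAMP1 lie below it.

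At the root surface, IRT1 and FRO2 were higher, and neither IRT2 nor the proton pump gene AHA2 was called. IRT1, the main ferrous iron importer, was at 54.1 and 55.7 FPKM in libraries labelled trm4b-4, against 30.0 and 31.3 FPKM in wild type, a ratio of 1.79 (log2 change 0.82, SE 0.039, adjusted p = 2.32e-06). FRO2, the ferric chelate reductase of the root epidermis, was at 11.96 and 11.44 FPKM, against 5.46 and 5.17 FPKM in wild type, a ratio of 2.20 (adjusted p = 2.34e-05). Both genes thus moved by less than bHLH38 and bHLH39, although a difference between genes was not tested. IRT2, which lies beside IRT1 and encodes a transporter of internal membranes, was low, at 1.65 and 1.53 FPKM, against 1.195 and 1.035 FPKM in wild type, and did not pass (0.29, adjusted p = 0.0942). AHA2, the root proton pump, was at 293 and 290.1 FPKM, against 286 FPKM in both wild type libraries (0.03, adjusted p = 0.315).

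The other ferric reductases split by direction. FRO3, of mitochondria, was at 67.3 and 68.8 FPKM in libraries labelled trm4b-4, against 45.3 and 46.6 FPKM in wild type, a ratio of 1.48 (log2 change 0.56, adjusted p = 9.39e-06). FRO6, a reductase of leaf plasma membranes, was at 18.8 FPKM in both libraries labelled trm4b-4, against 31.6 and 28.1 FPKM in wild type (-0.64, SE 0.060, adjusted p = 0.000112). FRO7, of chloroplasts, was at 14.8 and 16.4 FPKM, against 18.5 and 18.4 FPKM in wild type (-0.23, adjusted p = 0.0185). Groups were apart in all 3, as they were for 68.4% of all tested genes. FRO6 and FRO7 are neighbours on chromosome 5 whose coding sequences share a run of 375 identical bases and 93.8% of aligned bases, so how their fragments were split is uncertain. FRO7 did not pass when the trend was left out (adjusted p = 0.0581) or any of 3 libraries, with adjusted p of 0.0882 without trm4b-4 replicate 1, 0.0761 without wild type replicate 1 and 0.0687 without wild type replicate 2.

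Coumarins are secreted phenolics that help to mobilise iron. Of their 4 genes 2 were called, both higher, beside 19.2% of all tested genes called higher. CYP82C4, which hydroxylates fraxetin to sideretin, was at 10.5 and 11.1 FPKM in libraries labelled trm4b-4, against 4.04 and 3.58 FPKM in wild type, a ratio of 2.83 (log2 change 1.29, SE 0.084, adjusted p = 1.34e-05). AT3G12900, a coumarin gene of the list without a symbol in the reference, had 36 and 31 fragments, against 8 and 7 fragments in wild type, which is 1.53 and 1.25 FPKM against 0.282 and 0.274 FPKM. Wild type alone would not have passed the filter, which favours this direction (0.90, adjusted p = 0.00131). F6'H1, the enzyme gene of the first step, was at 0.07 (adjusted p = 0.306), and PDR9, the exporter gene, at 0.11 (adjusted p = 0.0942). NRAMP1, an importer of manganese and iron, was lower at 36.3 and 34.0 FPKM, against 39.2 and 40.8 FPKM in wild type (-0.18, adjusted p = 0.0158). It did not pass when the trend was left out (adjusted p = 0.0786), without trm4b-4 replicate 2 (0.0760) and without wild type replicate 2 (0.0971).

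IRT1 and FRO2 are expressed in root epidermis, so markers of that tissue were read beside them. Of 7 root hair and epidermis markers, none at 0 in any library, 5 were called higher and none lower, with a median log2 change of 0.44, where 19.2% of all tested genes were called higher. EXPA18 was not called without trm4b-4 replicate 2 or wild type replicate 2, nor LRX1 without trm4b-4 replicate 2 or either wild type library, and over all alternatives their adjusted p reached 0.0859 for EXPA18 and 0.177 for LRX1. Their summed level was 50.1 and 52.6 FPKM in libraries labelled trm4b-4, against 38.7 and 36.7 FPKM in wild type. Of 7 tested root endodermis markers 1 was lower and none higher, where 15.1% of all tested genes were called lower. That marker, PER64, was called in 9 of 12 alternatives. Endodermis sums were 46.5 and 48.6 FPKM in libraries labelled trm4b-4, against 55.0 and 53.6 FPKM in wild type. Of 6 green shoot markers 2 were higher and 3 lower, and their sums ran from 17615 to 17706 FPKM in libraries labelled trm4b-4 and from 17693 to 17699 FPKM in wild type. Of 4 phloem companion cell markers 1 was lower and none higher, beside the same 15.1%. That marker, SUC2 (adjusted p = 0.0486), was called in only 5 of 12 alternatives. Phloem sums were 166 and 169 FPKM in libraries labelled trm4b-4, against 175 and 168 FPKM in wild type. The morning clock genes CCA1, PRR9, PRR7 and RVE8 were all called higher (PRR7 not without trm4b-4 replicate 2 or either wild type library, where its adjusted p reached 0.149), with summed levels, LHY included, of 61.9 and 63.3 FPKM, against 52.5 and 52.6 FPKM in wild type. PRR9 passed the filter by its trm4b-4 values alone, which favours this direction. The part of these markers and clock genes in the iron gene values was not tested.

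**Figure D3:**
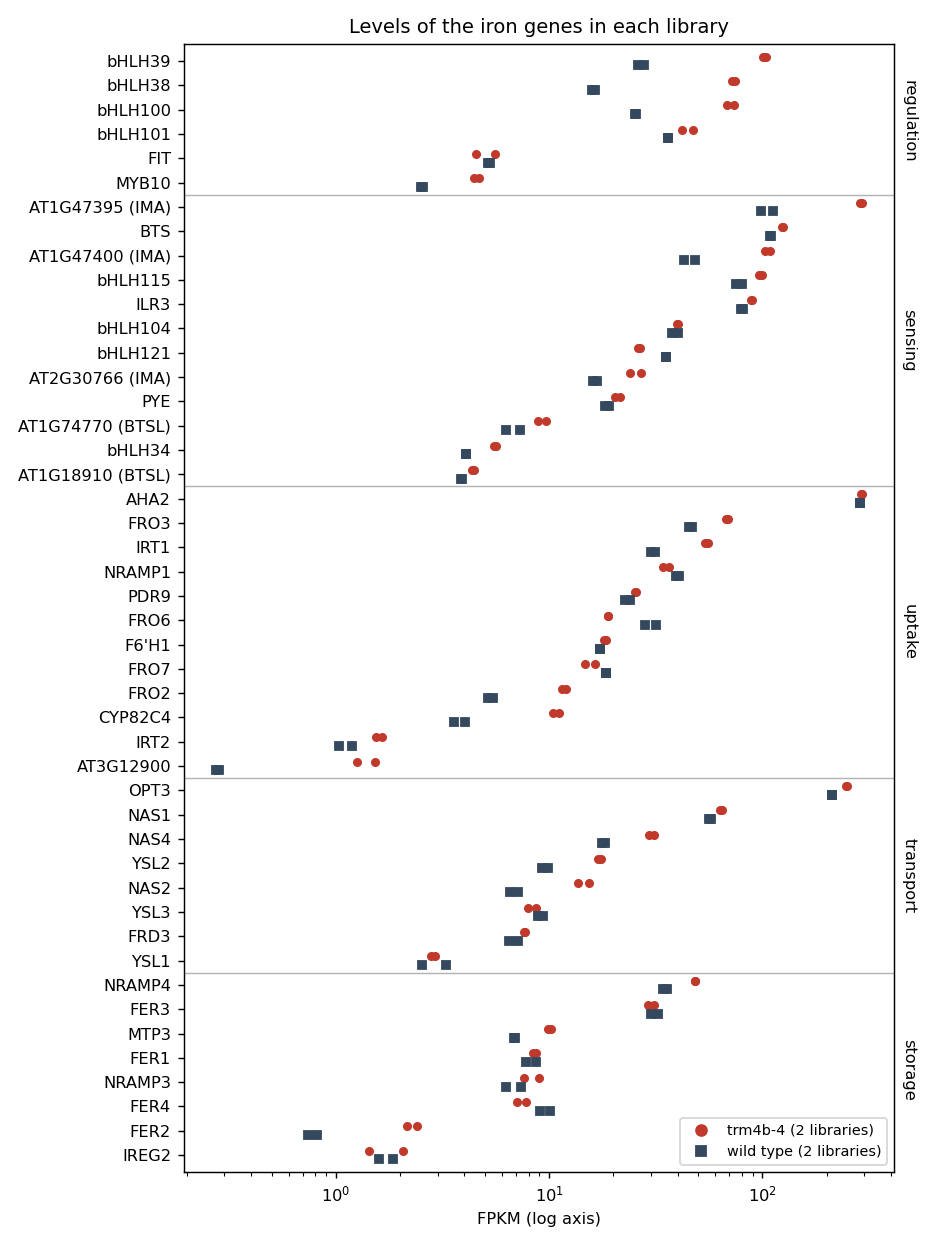
FPKM on a log axis in each library for the 46 tested iron genes, ordered by step and level, with libraries labelled trm4b-4 as circles above wild type as squares. Levels run from 0.274 FPKM for AT3G12900 in wild type to 293 FPKM for AHA2 in a library labelled trm4b-4.

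Nicotianamine synthase genes make the chelator that carries iron between cells, and the 3 tested ones were higher. NAS2 was at 15.3 and 13.6 FPKM in libraries labelled trm4b-4, against 6.57 and 7.12 FPKM in wild type, a ratio of 2.11 (log2 change 0.98, SE 0.078, adjusted p = 4.22e-05). NAS4 was at 29.4 and 30.9 FPKM, against 18.3 and 17.6 FPKM in wild type, a ratio of 1.68 (adjusted p = 1.66e-05). NAS1, the most abundant, changed least, at 63.1 and 64.5 FPKM, against 57.1 and 56.3 FPKM in wild type (0.17, adjusted p = 0.00481). NAS1 did not pass when the trend was left out (adjusted p = 0.0566). NAS3 was under the filter with 5 and 1 fragments, against 7 and 10 fragments in wild type. NAS1 and NAS2 share 83.6% of aligned coding bases and a run of 49 bases.

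Among the long-distance carriers, OPT3, which loads iron into the phloem, was at 247 and 249.6 FPKM in libraries labelled trm4b-4, against 211 and 213 FPKM in wild type, a ratio of 1.17 (log2 change 0.23, adjusted p = 0.000112). YSL2, a transporter of metal-nicotianamine complexes, was at 17.45 and 16.99 FPKM, against 9.23 and 9.90 FPKM in wild type, a ratio of 1.80 (0.79, adjusted p = 3.78e-05). Its relatives YSL1 and YSL3, which act in leaf veins and in seed filling, did not pass. YSL1 was at 2.91 and 2.78 FPKM, between the wild type values of 3.27 and 2.54 FPKM (-0.02, adjusted p = 0.927). YSL3 was at 8.67 and 7.99 FPKM, against 9.38 and 8.91 FPKM in wild type (-0.12, adjusted p = 0.240). FRD3, the citrate exporter gene of the xylem, was at 7.58 and 7.73 FPKM, against 6.46 and 7.15 FPKM in wild type (0.15, adjusted p = 0.177).

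Of the 8 tested storage genes 3 were higher, 1 was lower and 4 were not called. Of all tested genes, 19.2% were called higher and 15.1% lower. Among the vacuolar genes, NRAMP4, an exporter from the vacuole, was at 48.1 and 48.5 FPKM in libraries labelled trm4b-4, against 35.8 and 34.0 FPKM in wild type, a ratio of 1.38 (log2 change 0.46, adjusted p = 6.43e-05). Its close relative NRAMP3 was at 8.97 and 7.60 FPKM, against 6.30 and 7.42 FPKM in wild type, and did not pass (0.24, adjusted p = 0.108). MTP3, which moves zinc into root vacuoles, was at 10.2 and 9.90 FPKM, against 6.93 and 6.87 FPKM in wild type (0.48, adjusted p = 0.00102). IREG2, a vacuolar metal transporter gene of roots, was at 2.05 and 1.43 FPKM, on both sides of the wild type values of 1.60 and 1.85 FPKM (adjusted p = 0.994). VIT1, the vacuolar iron importer of embryos, was under the filter with 1 fragment in wild type replicate 1 and 0 in the other 3 libraries.

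The ferritin genes went in different directions. FER2, the ferritin gene of seeds, had 54 and 51 fragments in the libraries labelled trm4b-4, against 22 and 18 fragments in wild type, which is 2.40 and 2.15 FPKM against 0.812 and 0.737 FPKM. Both wild type values lie under 1 FPKM, so only the trm4b-4 side let FER2 pass the filter, which favours this direction. The ratio of mean FPKM was 2.94 (log2 change 0.88, adjusted p = 0.00076). FER4 was lower, at 7.79 and 7.03 FPKM, against 10.07 and 9.10 FPKM in wild type (-0.33, adjusted p = 0.0154). The call was lost without trm4b-4 replicate 2 (adjusted p = 0.0696) and without wild type replicate 1 (0.0961). FER3, the most abundant ferritin gene, was at 31.2 and 29.0 FPKM, against 32.5 and 30.0 FPKM in wild type, with groups that overlap (-0.05, adjusted p = 0.480). FER1 was at 8.63 and 8.36 FPKM, against 7.76 and 8.64 FPKM in wild type (0.05, adjusted p = 0.672). A gene annotated on the opposite strand overlaps 1334 bases of FER1, which makes its level uncertain.

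G-boxes stood before genes of both directions. The word CACGTG, which reads the same on both strands, was found within 250 bases of the start of 7 of the 48 members whose windows were searched (14.6%), beside 6.48% of 27442 protein-coding genes. Of these 7, bHLH38, bHLH100, OPT3 and BTS were called higher, FRO7 and FRO6 lower, and FER3 was not called. FRO6 and FRO7 are neighbours whose windows match around the G-box, so they are not independent cases, also in the share of 14.6%. BTS held 3 G-boxes, 146, 124 and 70 bases before its start, and its window, chr3:6273716-6273965, is shown for that reason, with every E-box in capitals.
BTS: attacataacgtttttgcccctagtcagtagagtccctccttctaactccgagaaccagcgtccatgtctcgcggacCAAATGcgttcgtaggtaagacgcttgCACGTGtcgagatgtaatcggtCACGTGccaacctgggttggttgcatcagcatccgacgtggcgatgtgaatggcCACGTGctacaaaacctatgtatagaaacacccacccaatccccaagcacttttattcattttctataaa

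An E-box of any kind was found in 32 of 48 member windows (66.7%), beside 55.3% of all windows. CATGC, a word known from iron-responsive promoters of grasses, was found on either strand in 15 of 48 (31.2%), beside 17.2% of all. It can share bases with an E-box that starts with CATG or ends with CATG. The uptake genes IRT1 and FRO2 held none of these words in their windows.

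**Figure D4:**
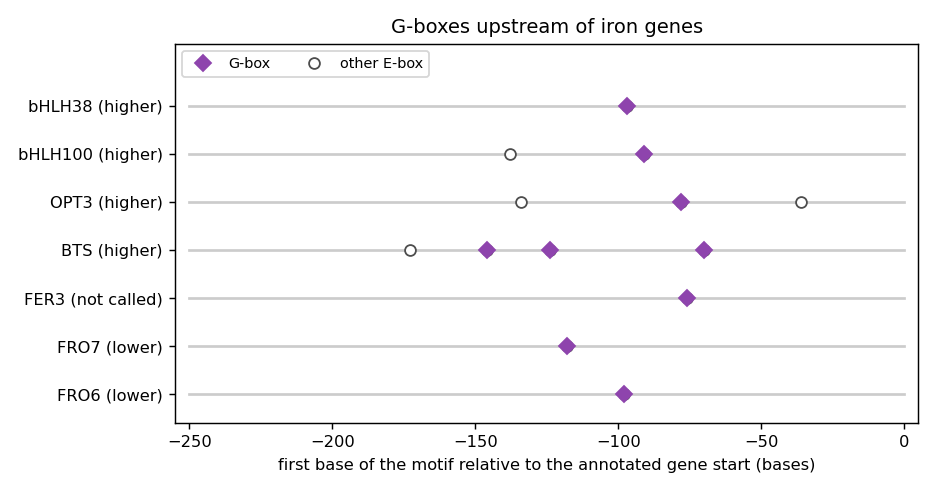
Position of G-boxes (diamonds) and other E-boxes (open circles) in the 250 bases before the annotated start of the 7 iron genes with a G-box, by distance in bases, ordered by log2 change. BTS holds 3 G-boxes, and the others hold 1 each, at 76 to 118 bases before the start.

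Other genes of iron handling moved in both directions. Of 58 such genes outside the members 45 were tested, and 12 were higher and 7 lower, 42.2% of those tested beside the 34.3% of all genes, with a median log2 change of 0.06. Among regulators and coumarin genes, ORG1, a gene named with bHLH38 and bHLH39 for its response to the factor OBP3, was at 248 and 251 FPKM in libraries labelled trm4b-4, against 169 and 162 FPKM in wild type (0.59, adjusted p = 2.23e-06). CGLD27, conserved in the green lineage, was at 156 and 148 FPKM, against 107 and 105 FPKM in wild type (0.51, adjusted p = 9.74e-06). CCOAOMT1, of phenylpropanoid methylation, was also higher (0.21, adjusted p = 0.000376). GRF11, IDF1 (AT4G30370) and EIL1 were lower, with log2 changes of -0.33, -0.46 and -0.17. None of these 3 passed without wild type replicate 2, and neither IDF1 nor EIL1 without trm4b-4 replicate 1, with adjusted p up to 0.104 for IDF1 and 0.131 for EIL1.

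Among further transporters, ZIF1, which loads nicotianamine into vacuoles, was higher (log2 change 0.29, adjusted p = 0.000387), as were PIC1 of the chloroplast envelope (0.16) and IREG3 (0.17). YSL5 (-0.18) and the low-level reductase gene FRO4 (-0.61) were lower. The mean FPKM of FRO4 in wild type was 2.36 times that of the libraries labelled trm4b-4. FRO4 passed the filter by its wild type values alone and missed the threshold once wild type replicate 1 was left out (adjusted p = 0.0654). IREG3 was not called without trm4b-4 replicate 1 or wild type replicate 2 (adjusted p up to 0.0913). Of 17 genes for iron-sulfur clusters 4 were higher and 2 lower, 35.3% beside the 34.3% of all tested genes called in either direction. The cysteine desulfurase gene NFS1 (0.34, adjusted p = 0.000101), the scaffold gene ISU1 (0.22) and GRXS14 (0.14) were the 3 rises with the smallest adjusted p. NEET, which encodes a protein that carries an iron-sulfur cluster, was at 17.2 and 20.1 FPKM in libraries labelled trm4b-4, against 58.1 and 60.5 FPKM in wild type (-1.62, SE 0.067, adjusted p = 1.03e-06). That was the largest change among the 54 other iron and zinc genes tested, and the wild type level was 3.18 times that of the libraries labelled trm4b-4. The plastid scaffold gene SUFB was lower as well (-0.20). Neither SUFB (adjusted p = 0.0514) nor GRXS14 (0.0762) was called when the mean-variance trend was left out.

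Zinc genes were read as well, since IRT1 also carries zinc. Of 9 tested genes of the zinc list none was higher and 3 were lower, 33.3% beside the 34.3% of all tested genes called in either direction. The 3 were ZIP5 (log2 change -0.54, adjusted p = 0.00707), ZIP3 (-0.44, adjusted p = 0.017) and MTP1 (-0.12, adjusted p = 0.0395), with a median of -0.11 over the 9. ZIP5 was at 2.95 and 2.89 FPKM in libraries labelled trm4b-4, against 4.20 and 5.29 FPKM in wild type. Without wild type replicate 2 none of the 3 passed, with adjusted p of 0.0516 for ZIP5, 0.115 for ZIP3 and 0.201 for MTP1. ZIP3 also failed without trm4b-4 replicate 2 (0.0715), and MTP1 without any single library. MTP3, which moves zinc but was counted with the storage genes, was higher (log2 change 0.48, adjusted p = 0.00102). The absence of rises thus holds for the 9 genes of the zinc list only, where 19.2% of all tested genes were called higher. With so few genes it is not a result about zinc genes. The difference between iron and zinc genes was not tested.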

How the data were processed

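The authors' deposited values are FPKM, 1 file per library. Values alone do not tell FPKM from RPKM. TopHat2 2.0.12, Cufflinks 2.1.1, HTSeq 0.6.1, Cuffdiff and the TAIR10 build are named per the submitters' processing notes, with no role or order. The library kit was directional per the labels' protocols, but whether counting used strand, and how multiply matching fragments were handled, is not given in the sources used here.

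Library totals and fragments were recovered from the steps of the values: all 24892 features above 0 gave whole fragments within 2e-06 fragments plus a relative 3e-09. An annotated length was used for 3787 features. For the others fragment numbers can be off by a whole factor, and they are printed only where a single length was possible. FPKM values and folds of FPKM do not depend on this. Recovered fragments summed to more than the library totals, from 101.5% in trm4b-4 replicate 1 to 101.6% in wild type replicate 2. The chi-square values and the voom alternative used the recovered fragments of all features, so a wrong factor can affect them.

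Genes that reached 1 FPKM in 2 or more of the 4 libraries were tested with limma 3.58.1 in R 4.3.3 on log2(FPKM + 1), with a mean-variance trend, no covariate, two-sided, with Benjamini-Hochberg adjusted p over all 19027 genes. A fold on this scale understates the change of low genes, so ratios of mean FPKM are given beside it for many genes, though not for all. Alternatives were a pseudocount of 0.1, no filter, a filter of 5 FPKM, median-of-ratios and quantile scaling, no trend, a replicate block, voom on recovered fragments, and each library left out. The procedure was also run on simulated data with the same spread for all genes and changes placed only in genes of many fragments. That run does not cover genes of few fragments, and its outcome is not given here.

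The members and lists were chosen with earlier results of these data known. Named genes were all members, TRM4B and, from each list of other genes, up to 3 per direction with the smallest adjusted p. Sequences and positions came from RefSeq's TAIR10.1, whose annotation may differ from that used for counting; 7 members have no symbol there. The upstream window of 1 member is not reported here.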

Additional observations from a re-analysis of the deposited data

How the results depend on the processing

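Of the 32 called members, 25 were called in the same direction under every one of 12 alternatives that could test them, 23 of them higher and 2 lower (FRO6 and bHLH121). Members called higher numbered 24 to 28 over the alternatives and members called lower 3 to 5, with 3 lower when the mean-variance trend was left out. Leaving out a library gave 25 to 28 higher and 3 to 4 lower. In those fits the lone library is assumed to vary like the other genotype. Over all genes 3648 were higher and 2882 lower, against 2967 and 3339 with median-of-ratios scaling and 4353 and 3171 with voom on recovered fragments. Of the other iron and zinc genes, 12 were higher and 10 lower, but 6 were lower with the stricter filter and 6 higher without the trend. Leaving out a library gave 8 to 11 higher and 4 to 8 lower, the 4 being without wild type replicate 2.

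Members that did not pass changed sign in some settings. IREG2 was at -0.00298 with the smaller pseudocount, -0.018 with median-of-ratios scaling, -0.035 with quantile scaling, -0.0041 with voom and between -0.16 and 0.17 with a library left out. AHA2 was at -0.0032 with median-of-ratios scaling. With a library left out, FIT ran between -0.17 and 0.074, YSL1 between -0.15 and 0.12, FER1 between -0.022 and 0.12, FER3 between -0.11 and 0.00069, and bHLH104 between -0.0029 and 0.080. The cause was not tested. Same-numbered libraries did not deviate together (correlation -0.043 over 19027 genes), and a replicate block gave 27 members higher and 5 lower, with 3768 and 3001 genes over all. IRT2 passed without the trend (adjusted p = 0.0322), PDR9 with voom (0.00608) and NRAMP3 with voom (0.0259) or without trm4b-4 replicate 2 (0.048). Genes of few fragments, such as AT3G12900, FER2 and IRT2, are limited by depth, and fragment numbers carry counting error.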
